A study of Mus musculus with 2 samples.

Results

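Venous endothelial cells line the lung vessels that carry blood from the capillaries back to the heart. They were selected on measured values, as barcodes in which 500 or more genes were detected and mitochondrial genes took no more than 10% of UMIs (unique molecular identifiers, each counting 1 captured transcript), with a UMI of at least 3 of 6 pan-endothelial genes (Pecam1, Cdh5, Cldn5, Egfl7, Ramp2 and Calcrl) and of at least 2 of 5 venous genes (Slc6a2, Amigo2, Car8, Cytl1 and Cpe). Cells with more than 2 of 6 genes of the aerocyte, a capillary cell type, or more than 1 of 5 arterial genes (Gja5, Bmx, Dkk2, Esr2 and Fbln5) were left out. This gate took 101 cells, 22 of 1326 in the KO library and 79 of 2745 in the WT library, of 4071 cells kept. Measured values of those 16 venous, aerocyte and arterial genes and of the pan-endothelial genes chose the cells, so the levels of these genes are given as description only.

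The study profiled single lung cells of a mouse model of hereditary hemorrhagic telangiectasia 2, an inherited disease of malformed vessels, with the 10x Genomics 3' v3 assay. There was 1 library labelled KO and 1 labelled WT, both from C57BL/6J mice aged 10 to 12 weeks. Both were made from dispase- and DNase-treated lungs by sorting VE-cadherin+ CD45- cells, a gate meant to keep endothelium and remove leukocytes. Many cells of other types were still present, as given below. The labels give neither the deleted gene nor any driver of its deletion, and the number of animals and their sex are not given in the sources used here. With 1 library a group there is no replicate check and no test: differences below describe these libraries, and the intervals, exact at 95%, cover counting error only.

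As background, venous identity in endothelium depends on the nuclear receptor Nr2f2 (COUP-TFII), which holds back Notch signalling, and on the receptor Ephb4, whose ligand Efnb2 marks arteries. Vwf, the clotting protein stored in Weibel-Palade bodies, is abundant in the endothelium of large vessels and low in lung capillaries. The norepinephrine transporter Slc6a2 lets lung endothelium clear norepinephrine from the blood. The human disease type is caused by loss of ACVRL1 (ALK1), an endothelial receptor for BMP9 and BMP10, and its lesions join arteries to veins directly.

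The KO library held 17864581 UMIs over 2196 barcodes and the WT library 25667220 UMIs over 3482 barcodes. They shared 12 barcode sequences, 0 of them among the gated cells. The cells were also typed by sex from Xist and 4 Y-linked genes, because these genes differed between the libraries. Y-linked UMIs without Xist were found in 16 of the 22 gated KO cells and Xist without Y-linked UMIs in 1. In WT, 71 of the 79 gated cells carried only Xist and 0 carried Y-linked UMIs. KO and WT venous cells therefore also compare mostly male with mostly female cells, and genotype and sex cannot be told apart. The KO library held cells of both sexes: of 469 other KO endothelial cells, 252 had Y-linked UMIs alone and 70 Xist alone. Of 1363 other WT endothelial cells, 1252 had Xist alone and 0 Y-linked UMIs alone. KO over WT ratios in other endothelial cells thus carry a sex mix that need not match that of venous cells.

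The gated cells were of 2 kinds, endothelial-dominant and non-dominant. In 64 cells, 15 KO and 49 WT, the 6 pan-endothelial genes held more UMIs than any of 4 lists of 6 genes each for alveolar type 2, fibroblast, mural and leukocyte cells. In the other 37, 7 KO and 30 WT, the alveolar type 2 list (the surfactant proteins Sftpc, Sftpa1, Sftpb and Sftpd with Lamp3 and Slc34a2) equalled or exceeded the pan-endothelial sum, and in 2 WT cells the fibroblast list did too. Type 2 genes took a median of 19.6% of UMIs in the 7 KO cells and 23.1% in the 30 WT cells of this non-dominant kind, against 0.178% and 0.313% in the 15 KO and 49 WT endothelial-dominant cells. Their median depth was 19138 UMIs in KO and 17371 UMIs in WT, against 6936 and 5669 UMIs in endothelial-dominant KO and WT cells. The libraries did not hold endothelium alone. Of the 1326 KO and 2745 WT cells kept, 484 and 1412 were endothelial-dominant with at least 3 pan-endothelial genes. A further 573 KO and 667 WT cells had fewer than 3 of these genes, and the type 2 list was their largest.

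Vwf, which the gate did not use, separated the 2 kinds. It had a UMI in 14 of 15 endothelial-dominant KO cells and 44 of 49 endothelial-dominant WT cells, but in 0 of 7 non-dominant KO cells and 4 of 30 non-dominant WT cells. Many non-dominant cells entered through Car8, a carbonic anhydrase-related protein: 2 of 7 in KO and 15 of 30 in WT had Amigo2 and Car8 as their only venous genes. They had Car8 at 251 CPM in KO and 283 CPM in WT (the UMIs of a gene scaled to 1000000 UMIs of a class of cells). Scrublet called 4 of the 37 as doublets, 2 in each library, and 0 of the 64. The non-dominant cells were mixed: in 3 of the 30 WT cells the type 2 share lay within the range of endothelial-dominant WT cells (0.0911% to 0.648%), and 3 of the 30, against 0 of 7 in KO, had at least 3 venous genes. For most of the 37 the data go against the venous label, though not for each cell, and results are given for all 101 cells and for the 64 endothelial-dominant cells, a split chosen after the values were seen.

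**Figure D1:**
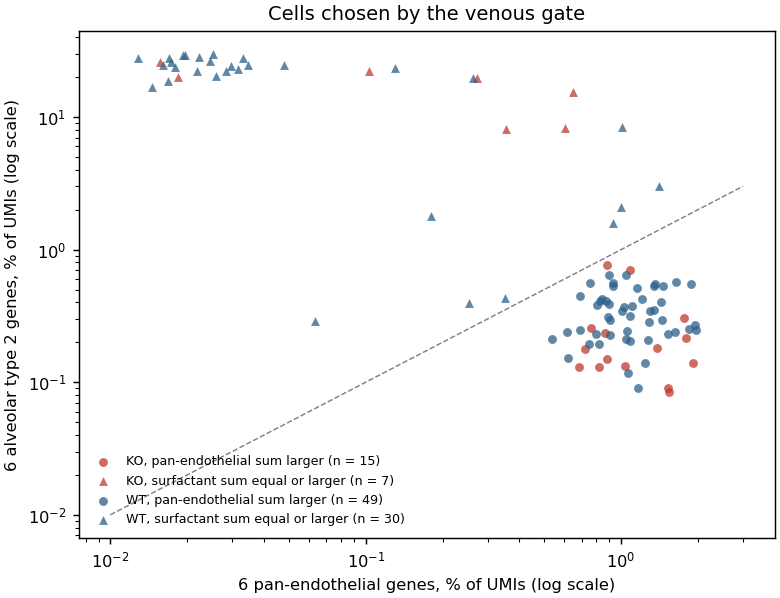
Each point is 1 gated cell, placed by the percent of its UMIs in 6 pan-endothelial genes (horizontal, log scale) and in 6 alveolar type 2 genes (vertical, log scale), with KO in red, WT in blue, and equality as the dashed line. The 15 KO and 49 WT endothelial-dominant cells (circles) lie below the line, and the 7 KO and 30 WT non-dominant cells (triangles) lie above it.

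All 64 endothelial-dominant gated cells carried some surfactant RNA: Sftpc, the surfactant protein of type 2 cells, stood at 1452 CPM in KO and 2027 CPM in WT venous cells and at 1436 and 2605 CPM in other KO and WT endothelial cells. Of the other cell types that the sort could hold, all 6 leukocyte genes had 0 UMIs in the 64 cells, and so did Prox1, Ccl21a, Mmrn1, Reln and Pdpn of 7 lymphatic genes. Lyve1, a hyaluronan receptor often used as a lymphatic marker, was present at 1764 CPM in KO and 1739 CPM in WT venous cells, and at 3373 and 3567 CPM in KO and WT arterial-gated cells, which had at least 2 arterial genes but passed neither the venous nor the aerocyte limit. Cardiomyocyte genes were near absent, with Myl7, Nppa, Sln, Tnnt2 and Myh6 at 0. The fibroblast list summed to 94.3 CPM in KO and 82.2 CPM in WT venous cells, and the mural list to 56.6 and 44.5 CPM.

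Among the endothelial-dominant cells Amigo2, an adhesion protein, had a UMI in 15 of 15 KO and 45 of 49 WT cells, and Slc6a2 in 12 of 15 KO and 44 of 49 WT cells. Car8 was found in 11 KO and 37 WT cells, Cpe, a prohormone-processing carboxypeptidase, in 10 KO and 31 WT cells, and Cytl1, a secreted cytokine-like protein, in 2 KO and 12 WT cells. At least 3 of the 5 venous genes were present in 10 of 15 KO cells (66.7%, 38.4% to 88.2%, exact Clopper-Pearson) and 35 of 49 WT cells (71.4%, 56.7% to 83.4%), so the cells just inside the threshold, with 2 venous genes, were 5 KO and 14 WT cells. Fbln5, an elastic fibre protein counted as arterial, was detected in 9 KO and 32 WT of the 64 cells.

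Just outside the gate were endothelial-dominant cells with at least 2 venous genes that failed on arterial genes, 6 in KO and 14 in WT. All 6 KO and all 14 WT cells had Vwf, at 2879 CPM in KO and 6710.5 CPM in WT, and Slc6a2 was detected in 3 KO and 10 WT of them. Mgp, an inhibitor of BMP ligands and of calcification, stood at 8147 CPM in the 6 KO and 5007 CPM in the 14 WT cells outside, against 2197 CPM in KO and 1102 CPM in WT cells inside. The KO value outside rested on 1 cell with 90.6% of the UMIs, and 1 KO cell inside held 48.9%. Without the top cell of each, KO levels were close, at 1015 CPM outside and 1210 CPM inside. A further 9 WT cells failed on aerocyte genes.

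All 101 gated cells were 4.48% (2.83% to 6.71%) in KO and 5.48% (4.36% to 6.78%) in WT of the gated and other endothelial-dominant cells together, 491 in KO and 1442 in WT. Non-dominant cells enter this total only where gated, although 93 KO and 469 WT cells with at least 3 pan-endothelial genes were non-dominant in all. Restricted to endothelial-dominant cells, the shares were 3.10% (1.74% to 5.06%) in KO and 3.47% (2.58% to 4.56%) in WT. The KO and WT intervals overlapped in both versions, so no difference in share was detectable at these cell numbers. The sort and the dissociation can set these shares, and the gated share was lower at a lower depth: with each cell thinned to 1500 UMIs the gate took 2.43% in KO and 3.26% in WT.

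The venous cells were set against the other endothelial-dominant cells of the same library, 469 in KO and 1363 in WT. Of these, 72 KO and 415 WT cells passed the limit of 3 aerocyte genes alone, 14 KO and 45 WT cells that of 2 arterial genes alone, 7 KO and 24 WT cells passed 2 limits, and 376 KO and 879 WT cells passed none and are called the remaining cells. A gene was called where the ratio was at least 2-fold with the 2 intervals apart in both libraries, at a mean of at least 50 CPM. Genes under that mean were not measured, so list members low in both classes are left out of the list counts and medians below. This contrast is the one the gate was built on, so the counts describe the cells and test nothing. Over all 101 cells, 148 of 3208 genes were higher (4.61%) and 341 were lower (10.6%), with a median log2 ratio over all genes of -0.31 in KO and -0.43 in WT. Centred on those medians the split was 206 higher and 189 lower. Over the 64 endothelial-dominant cells, 82 of 3320 genes were higher (2.47%) and 106 lower (3.19%), with medians of -0.03 in KO and -0.08 in WT. Both sets shared 27 higher and 91 lower genes; all 6 type 2 genes were among those called higher with the 37 cells included, and 0 without them. Levels below are of the 64 cells unless all 101 are named.

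Genes known for venous and large-vessel endothelium led the endothelial-dominant cells. A venous list held 14 genes, of which 10 reached the minimum mean level and were measured. Of these 10, 6 were higher (Vwf, Fabp4, Nr2f2, Ephb4, Lrg1 and Prss23) and 0 lower. The median log2 ratio of the 10 was 1.91 in KO and 3.70 in WT. Fabp4 and Lrg1 reached the minimum only through their levels in venous cells. The counts and medians therefore describe the measured genes and not the whole list. Vwf (chr6:125546774-125686679 in mm10, plus strand) stood at 3527 CPM (3179 to 3903) in KO and 4187 CPM (3956 to 4428) in WT venous cells, against 156 CPM in KO and 229 CPM in WT in the other endothelial cells. In single cells it ran from 0 to 8135 CPM with a median of 3673 CPM in KO, and from 0 to 10014 CPM with a median of 4524 CPM in WT. Arterial-gated cells had a summed level of 1185 CPM in KO and 1424 CPM in WT, so the venous level was 2.98 times theirs in KO and 2.94 times in WT. That class leaves out cells with at least 2 venous genes, and all 21 KO and 60 WT other endothelial cells with at least 2 arterial genes had 1929 CPM in KO and 2979.8 CPM in WT.

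Thinned to 1500 UMIs, Vwf was found in 12 of 15 KO venous cells (80.0%) and 39 of 46 WT venous cells (84.8%, after 3 shallower cells were left out). In alveolar type 2 cells, which should lack it, the thinned share was 0.376% in KO and 1.43% in WT. The unthinned shares of venous cells were 93.3% in KO and 89.8% in WT, and those of type 2 cells 3.49% and 5.85% at median depths of 19519 UMIs in KO and 16970 UMIs in WT.

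**Figure D2:**
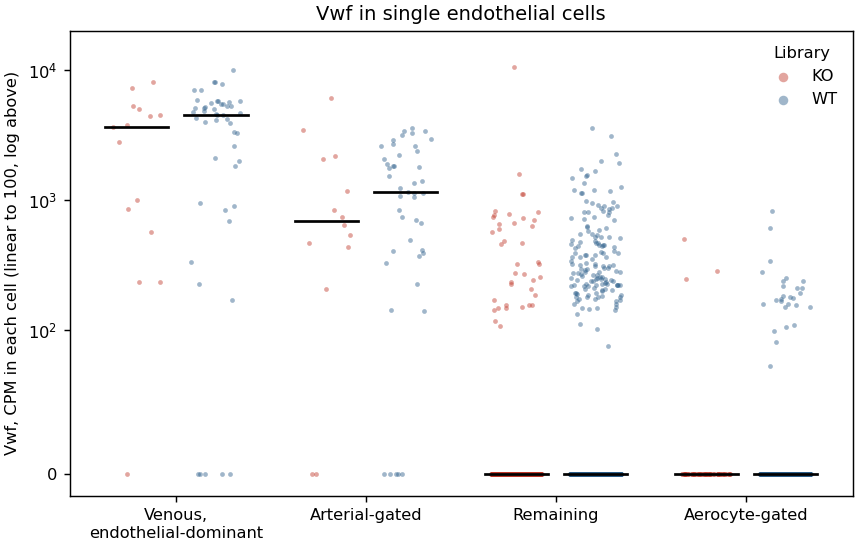
Points are single endothelial-dominant cells, with Vwf in CPM of the cell (vertical, linear to 100 and log above), KO in red to the left of WT in blue within each class, and the class median as a black bar. The medians of venous cells were 3673 CPM in KO and 4524 CPM in WT, those of arterial-gated cells 689 and 1154 CPM, and those of the remaining and aerocyte-gated cells 0.

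Fabp4 (chr3:10204088-10208576, minus strand), a fatty acid carrier, was likewise not used by the gate. It reached 698 CPM (548 to 876) in KO and 873 CPM (769 to 987) in WT venous cells, against 18.6 and 46.3 CPM in other KO and WT endothelial cells. It was unevenly spread: 6 of 15 KO and 22 of 49 WT venous cells had any UMI, and 1 KO cell held 47.3% of the KO UMIs. Nr2f2 (chr7:70351944-70366735, minus strand) stood at 622 CPM (481 to 792) in KO and 407 CPM (337 to 488) in WT venous cells, and at 50.3 and 25.0 CPM in other KO and WT endothelial cells. Arterial-gated cells had Nr2f2 UMIs in 0 of 14 KO and 3 of 45 WT cells, whereas the cells left out of that class for having at least 2 venous genes had them in 4 of 6 KO and 10 of 14 WT cells.

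Prss23 (chr7:89507783-89527187, minus strand), a secreted serine protease, was at 1349 CPM in KO and 1897 CPM in WT venous cells, against 139 and 113 CPM in other KO and WT endothelial cells. Ephb4 was at 538 CPM in KO and 425 CPM in WT venous cells, 2.61 and 2.18 times its level in the other cells. Lrg1, a secreted glycoprotein that acts on TGF-beta signalling in endothelium, was at 104 CPM in KO and 315 CPM in WT venous cells, against 19.0 and 30.2 CPM. Selp (P-selectin) and Ackr1 (the atypical chemokine receptor of postcapillary venules) stayed near the floor: Selp had UMIs in 0 of 15 KO and 2 of 49 WT cells, and Ackr1 had 0 in both.

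Beyond the venous list, the 15 genes with the highest ratios over the 64 cells included Fgl2, Col14a1, Mmp2 and Ptgis. Fgl2, a prothrombinase and immune regulator, was at 292 CPM in KO and 537 CPM in WT venous cells, against 4.75 and 22.4 CPM in other KO and WT endothelial cells. Col14a1, a fibril-associated collagen, was at 141 CPM in KO and 171 CPM in WT, against 5.15 and 5.83 CPM, and Mmp2, a gelatinase, at 236 and 95.9 CPM, against 3.56 and 7.56 CPM. Ptgis, the prostacyclin synthase, was 11.9 and 12.0 times the level of other cells in KO and WT. Also among the 15 were Dnm3 (a dynamin), Slfn2, Pgm5, Cthrc1, Hspa1b, St6gal1 (a sialyltransferase), Fabp4, Vwf, Nr2f2 and Prss23.

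When all 101 cells were used, 29 ranked genes passed the rule and the 15 named were Spint2, Fabp5, Fgl2, Ctsh, Fabp4, Vwf, Oat, Nr2f2, Prss23, Lbp, Hspa1b, Vegfc, Hspa1a, Bgn and Emp3. The non-dominant cells carried some of these. Ctsh, a lysosomal protease, stood at 2700.1 CPM in KO and 1941 CPM in WT non-dominant cells, against 472 and 294 CPM in KO and WT endothelial-dominant cells. Spint2, a protease inhibitor, was at 366 and 298 CPM in KO and WT non-dominant cells and at 9.43 and 20.5 CPM in endothelial-dominant ones, where it was not called. Lbp, the lipopolysaccharide-binding protein, was at 339.5 CPM in KO and 380.0 CPM in WT endothelial-dominant venous cells, against 51.1 and 31.2 CPM in the other endothelial cells. Vegfc, the main ligand of lymphatic growth, was at 264 and 332 CPM, against 34.8 and 25.5 CPM.

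The genes with the lowest ratios over the 64 cells included Igfbp7, Apln, Sparcl1 and Prx. Igfbp7, a secreted growth factor binding protein, was at 330.1 CPM in KO and 116 CPM in WT venous cells, against 1986 and 3083 CPM in other KO and WT endothelial cells. Apln, the apelin ligand, had 1 UMI in the 15 KO cells and 0 in the 49 WT cells, where a count of 0 allows up to 10.3 CPM, against 492 and 118 CPM. Sparcl1, a matricellular protein, had 0 UMIs in KO, where the floor is 28.3 CPM, and 37.7 CPM in WT, against 329.9 and 401 CPM. Prx, a PDZ protein of lung capillary endothelium, was at 28.3 CPM in KO and 44.5 CPM in WT venous cells, against 294 and 379 CPM. The remaining lower genes named by size were Dcbld1, Sema7a (a semaphorin), Dll4 (a Notch ligand), Ptp4a3, Pllp and Esm1 (a tip-cell proteoglycan), and over all 101 cells Mfng, Tmod2 and Prickle2 as well.

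**Figure D3:**
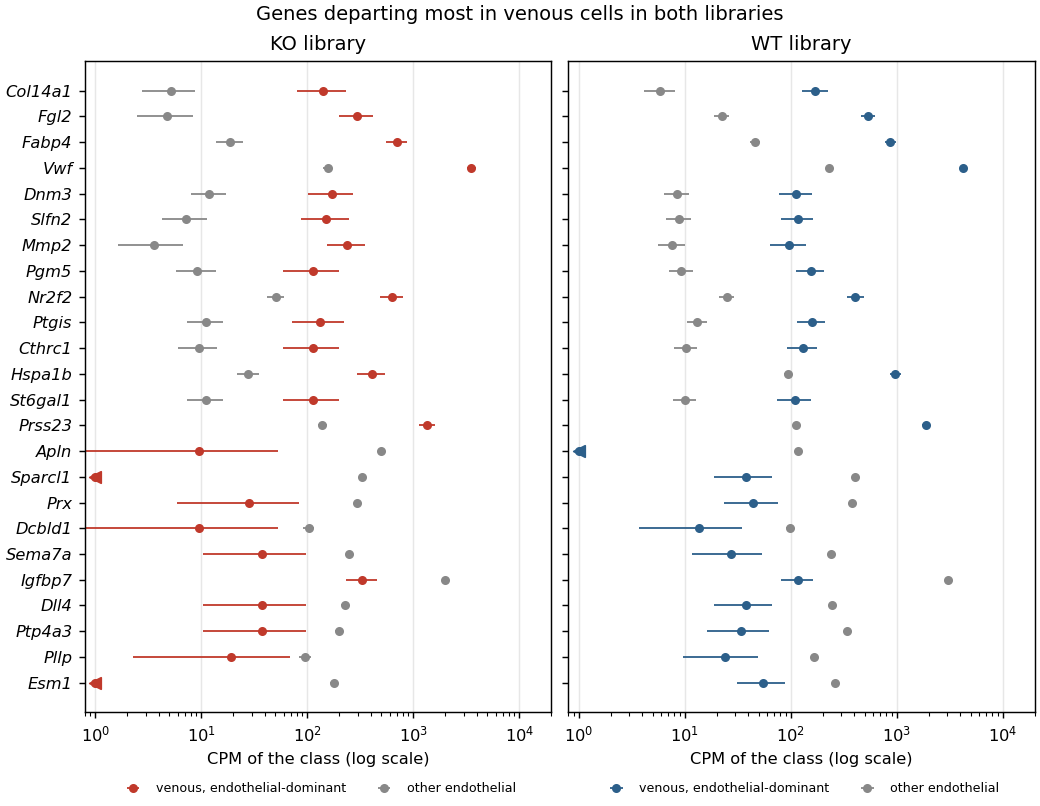
Each row is a gene, in KO (left) and WT (right), with the level of endothelial-dominant venous cells in colour and of other endothelial cells in grey, in CPM on a log axis with exact 95% Poisson intervals, and triangles at the left edge for 0 UMIs. The upper 14 genes lie above the other cells in both libraries, with Vwf highest at 3527 CPM in KO and 4187 CPM in WT, and the lower 10 lie below.

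Of 13 measured matrix genes, 5 were higher (Eln, Fbln2, Ltbp4, Mgp and Bgn) and 6 lower (Col4a1, Col4a2, Lamc1, Nid1, Sparc and Sparcl1). Their median log2 ratio was 0.18 in KO and -0.08 in WT, and over all genes 2.47% were higher and 3.19% lower. Eln, the elastin precursor, was at 3537 CPM (3188 to 3913) in KO and 1797 CPM (1647 to 1958) in WT venous cells, against 350.5 and 347 CPM in other KO and WT endothelial cells. It was detected in 15 of 15 KO and 43 of 49 WT venous cells. Col4a1, a collagen of basement membrane, was at 820.5 CPM in KO and 452 CPM in WT venous cells, against 3429 and 1456 CPM. Bgn, a small proteoglycan, was 6.84 times the level of other cells in KO and 9.02 times in WT. Mgp was not particular to venous cells: arterial-gated cells had 846 CPM in KO and 1186 CPM in WT, against 2197 and 1102 CPM in venous cells. In KO, 1 cell held 48.9% of the venous and 1 cell 81.4% of the arterial-gated Mgp UMIs. Arterial-gated cells had Eln at 1088 CPM in KO and 683 CPM in WT, and Bgn at 157 and 90.0 CPM.

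Of 16 measured immediate early and heat shock genes 9 were higher and 0 lower, against 2.47% higher and 3.19% lower over all genes. The list's median log2 ratio was 1.27 in KO and 1.60 in WT. Hspa1a, an inducible chaperone, stood at 726 CPM in KO and 1599 CPM in WT venous cells, against 43.2 and 166 CPM in other KO and WT endothelial cells. Junb, an AP-1 factor, was at 499.8 and 1202 CPM, against 149 and 252 CPM, and Egr1, another early response factor, at 169.8 and 623 CPM, against 39.2 and 165 CPM. Arterial-gated cells had Hspa1a at 278 CPM in KO and 724 CPM in WT. These genes also respond to enzymatic dissociation, and the part of the dissociation in their levels was not tested.

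Several functions of the lung endothelium were represented by few genes. The shares over all genes, for comparison with the lists below, were 2.47% higher and 3.19% lower. Of 8 measured haemostasis genes, 3 were higher (Vwf, Ptgis and the ectonucleotidase Entpd1) and 0 lower. Of 5 measured lipid genes, Fabp4 and Fabp5 were higher and Lpl, a lipase, lower: Lpl was at 377 CPM in KO and 336 CPM in WT venous cells, against 1049 and 1083 CPM. Of 7 measured amine and prostanoid genes, Ptgs1 (cyclooxygenase 1) and Ptgis were higher and Ace, the angiotensin-converting enzyme, lower. Ptgs1 was at 264 CPM in KO and 349 CPM in WT venous cells, against 59.4 and 80.8 CPM, and Ace at 538 and 575 CPM, against 1114 and 1448 CPM. The transporter Slc6a2 (chr8:92960079-93001667, plus strand), a gate gene, stood at 1207 CPM (1007 to 1435) in KO and 1308 CPM (1179.9 to 1446) in WT venous cells and at 0 UMIs in arterial-gated cells of both libraries, while Maoa, which degrades amines, was at 84.9 and 51.4 CPM in KO and WT venous cells and was not called.

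On the arterial list, Efnb2, Hey1 and Dll4 were lower and Mgp, Vegfc and Ltbp4 higher, of 12 measured. For this list and those below, the shares over all genes were 2.47% higher and 3.19% lower. Efnb2 was at 302 CPM in KO and 199 CPM in WT venous cells, against 836 and 955 CPM in other KO and WT endothelial cells and 1801 and 1735 CPM in arterial-gated ones. Of 15 measured sprouting genes 6 were lower (Apln, Esm1, Dll4, Flt4, Vegfa and the VEGF receptor Kdr) and 1, Vegfc, higher, and of 7 Notch genes Dll4 and Hey1 were lower. Among 21 transcription factors, Nr2f2, Zfp36 (an RNA-binding protein) and the flow-responsive Klf2 were higher and Ets2 lower. Klf2 stood at 4131 CPM in KO and 3680.2 CPM in WT venous cells, against 1866 and 1822 CPM. Of 8 general capillary genes, only the receptor Kit was called, lower at 151 CPM in KO and 199 CPM in WT venous cells, against 573 and 525 CPM.

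BMP receptors and SMADs gave 0 calls in either direction among 11 measured genes, and their median log2 ratio was 0.00 in KO and -0.02 in WT. Acvrl1 (chr15:101128522-101145336, plus strand) had 726 CPM (573 to 908) in KO and 952 CPM (843 to 1070.4) in WT venous cells, against 1066 and 1503 CPM in other KO and WT endothelial cells, below the 2-fold limit. By class, KO levels ran from 726 CPM in venous through 922 CPM in the remaining cells and 1269.5 CPM in arterial-gated cells to 1670 CPM in aerocyte-gated cells, and WT levels were 952, 1308, 1068 and 1867 CPM in the same classes. Eng, its co-receptor, was at 1311 CPM in KO and 1078 CPM in WT venous cells. Of 9 measured BMP target genes 1 was lower, Hey1. Leukocyte adhesion genes gave 1 call of 5, Cd34, lower at 9.43 CPM in KO and 116 CPM in WT venous cells, against 768 and 548 CPM. Junction (17 measured), antigen presentation (10) and interferon genes (12) gave 0 calls in either direction. Over all genes 2.47% were called higher and 3.19% lower, so 0 calls in lists this short is near that share. Among markers of other cell types, 1 of 2 measured type 1 pneumocyte genes, Hopx, and 2 of 3 lymphatic genes, Ccl21a and Flt4, were lower, and 1 airway gene measured was not called.

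Against arterial-gated cells alone, 14 in KO and 45 in WT and without cells that had at least 2 venous genes, 49 genes were higher and 54 lower in endothelial-dominant venous cells. Prss23 was 22.3 and 22.1 times its arterial level in KO and WT, and Ptgs1 21.8 and 17.1 times. Nr2f2 was 19.9 times its arterial level in WT. In KO, arterial cells had 0 Nr2f2 UMIs, and over a floor of 3 the ratio was 17.2. The arterial levels rested on 5 Prss23 UMIs in KO and 5 Nr2f2 UMIs in WT. Sema7a, lower than in other endothelial cells, was 3.12 times its arterial level in KO and 1.34 times in WT. Prx was 0.585 times its arterial level in KO and 10.9 times in WT. In these small arterial classes 3 counts make 36.3 CPM in KO and 12.3 CPM in WT. The arterial levels of Ptgs1 in KO and of Prx in WT lay below this, so these folds rest on very few UMIs. Prx in KO was near the floor in both classes, and its direction there is not settled. With all 101 cells against arterial-gated ones, Emp3, a membrane protein, had a log2 ratio of -0.42 in KO and -0.19 in WT, and Hspa1a one of -0.14 in WT.

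The venous cells were not uniform. The 10 KO and 35 WT cells with at least 3 venous genes had Vwf in every cell, at 4595 CPM in KO and 5057 CPM in WT, whereas the 5 KO and 14 WT cells with 2 had 569 CPM in KO and 831 CPM in WT. Nr2f2 was at 847 CPM in KO and 461 CPM in WT cells with at least 3, against 0 and 199.5 CPM in those with 2, and Prss23 at 1758 and 2225 CPM, against 213 and 632 CPM. The capillary receptor Kit went the other way, with UMIs in 5 of 5 KO and 9 of 14 WT cells with 2 venous genes, and in 2 of 10 KO and 5 of 35 WT cells with at least 3. Gpihbp1, the lipase anchor of capillaries, was at 1885 CPM in KO and 1796 CPM in WT cells with 2, at 1104 and 828 CPM in those with at least 3, and at 2118 and 1651 CPM in the remaining KO and WT cells. The remaining cells had Kit at 725 CPM in KO and 875 CPM in WT, against 498 and 748 CPM in venous cells with 2 genes, but Vwf at only 50.7 and 81.2 CPM. The venous label is thus doubtful for the 5 KO and 14 WT cells with 2 venous genes. Over the 10 KO and 35 WT cells alone, 90 genes were higher and 125 lower than in other endothelial cells, and 57 were higher and 42 lower in KO than in WT. Acvrl1 was at 655 CPM in KO and 909.7 CPM in WT cells with at least 3, and at 925 and 1114 CPM in those with 2.

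Cytl1 is a gate gene, so a split by it uses values that chose the cells and is description only. The 12 WT cells with Cytl1, with at least 2 venous genes, had Fabp4 in 10, at 1493 CPM, and Mgp in 11, at 2002 CPM. The 24 WT cells with at least 3 venous genes but no Cytl1 had Fabp4 in 9, at 839 CPM. They had Mgp in 14, at 997 CPM, and 1 of them held 57.8% of their Fabp4 UMIs. Without the top cell for each gene, Fabp4 was at 1186 CPM with and 423 CPM without Cytl1. Mgp was then at 1632 CPM with and 609.7 CPM without it. Vwf was close in both, at 5461 CPM with and 4741 CPM without Cytl1. In KO only 2 cells had Cytl1. Cells with more gate genes can also be cells of greater depth, and the part of depth in these splits was not tested.

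**Figure D4:**
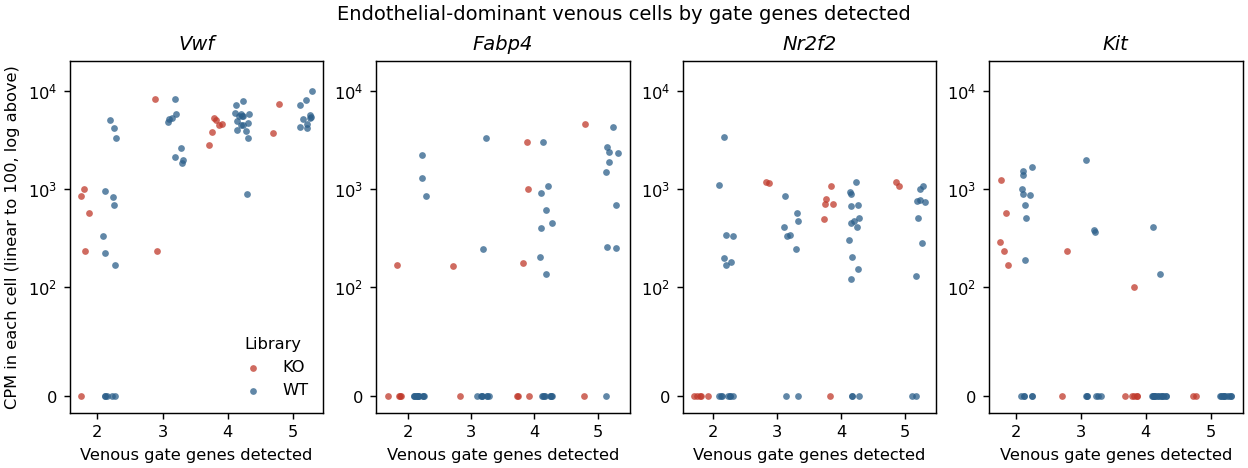
Points are endothelial-dominant venous cells, by the number of the 5 venous gate genes detected (horizontal) and the level of Vwf, Fabp4, Nr2f2 or Kit in CPM of the cell (vertical, linear to 100 and log above), with KO in red to the left of WT in blue. Vwf is present in all 10 KO and 35 WT cells with at least 3 gate genes, and Kit in 5 of 5 KO and 9 of 14 WT cells with 2.

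Between KO and WT venous cells, genes were called at 2-fold with the intervals of both levels apart and a mean of at least 50 CPM. Over all gated cells, 80 of 3208 genes were higher in KO (2.49%) and 56 lower (1.75%). Over the endothelial-dominant cells, 42 of 3640 were higher (1.15%) and 50 lower (1.37%), and the median log2 ratio was 0.05. In the other endothelial cells, which are far more numerous, 59 of 3795 genes were higher in KO (1.55%) and 40 lower (1.05%). Of the calls in endothelial-dominant venous cells, 13 lower genes and 1 higher gene, Sparc, were called the same way in other endothelial cells. Among the 13 were Xist, Egr1, Fos, Hspa1a, Hspa1b, Hspb1, Id2, Ifi204 and Lyz1, a lysozyme of type 2 cells.

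Cdkn1a, Npr3 and Pde4b were among the genes higher in KO venous cells. Cdkn1a, an inhibitor of cyclin-dependent kinases, was at 811 CPM (649 to 1002) in KO and 239.6 CPM (187 to 303) in WT venous cells, a ratio of 3.38 (2.44 to 4.71), and was found in 13 of 15 KO and 28 of 49 WT cells. Npr3, the natriuretic peptide clearance receptor, was at 387 CPM (277 to 525) in KO and 127 CPM (89.2 to 175) in WT, and Pde4b, a cyclic AMP phosphodiesterase, at 481 CPM (358 to 632) in KO and 164 CPM (121 to 218) in WT. In other endothelial cells the KO over WT ratios of these 3 genes were 1.32, 1.90 and 1.83, on the same side but under the 2-fold limit. Sox17, an arterial transcription factor, was at 264 CPM in KO and 119.8 CPM in WT venous cells, a ratio of 2.20 (1.29 to 3.73), against 1.44 in other cells.

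The remaining named genes that were higher with and without the non-dominant cells were Rassf1, Cyth3, Dusp3, Atp2b1 (a plasma membrane calcium pump) and Pnp (purine nucleoside phosphorylase), with ratios of 2.75, 2.02, 2.51, 2.37 and 2.19 in the 64 cells. Pitpna had a ratio of 2.02 over all gated cells and 2.09 over the 64, where it was not called. Ranked over the endothelial-dominant cells, Maged2 was first at 302 CPM (206 to 426) in KO and 51.4 CPM (28.7 to 84.7) in WT, followed among others by Armcx1, Triobp, Ptprr, Ccnd2, Nr1h2, Per1 and Slc30a1 at ratios between 2.93 and 4.24. In cells thinned to 1500 UMIs the log2 ratio of Ptprr was -0.29. Apoe, the lipoprotein component, was at 641 CPM in KO and 123 CPM in WT venous cells, but 1 KO cell held 69.1% of the KO UMIs and 4 of 15 KO cells had any. With the limit on arterial genes lifted, so that 21 KO and 63 WT cells entered, the log2 ratio of Apoe was -0.20.

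Early response and heat shock genes were lower in KO venous cells. Fos was at 104 CPM (51.8 to 186) in KO and 397 CPM (328 to 476) in WT venous cells, Egr1 at 169.8 CPM (101 to 268) in KO and 623 CPM (536 to 720.5) in WT, and Hspb1, a small chaperone, at 245 CPM (160.2 to 359) in KO and 1030.5 CPM (917 to 1154) in WT. In other endothelial cells the same ratios were 0.221 for Fos, 0.237 for Egr1 and 0.380 for Hspb1. Of 17 measured genes of this list, 8 were lower and 0 higher in venous cells, with a median log2 ratio of -1.04. In other endothelial cells 5 of 14 were lower, with a median of -0.70. Over all genes 1.37% were lower and 1.15% higher in venous cells, and 1.05% lower in other endothelial cells. These are the genes that also respond to dissociation, and its part in the difference between the libraries was not tested.

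Ch25h, Cyp1a1, Isg15 and Bmp4 were also lower in KO venous cells. Ch25h, which makes 25-hydroxycholesterol, was at 56.6 CPM (20.8 to 123) in KO and 236 CPM (184 to 299) in WT venous cells and at 3.17 and 2.99 CPM in other KO and WT endothelial cells. Cyp1a1, the aryl hydrocarbon receptor target, was at 37.7 CPM (10.3 to 96.6) in KO, with all UMIs in 1 cell, and 216 CPM (166 to 276) in WT, and at 0.396 and 2.99 CPM in other endothelial cells. Isg15, an interferon-induced ubiquitin-like protein, was at 28.3 CPM in KO and 195 CPM in WT, a ratio of 0.145 (0.0290 to 0.446), against 1.17 in other cells. Bmp4, a BMP ligand, was at 56.6 CPM (20.8 to 123) in KO and 216 CPM (166 to 276) in WT venous cells, a ratio of 0.262, whereas the ratio in other endothelial cells was 1.91. Hs3st1, a heparan sulfate sulfotransferase, was at 141 CPM in KO and 455 CPM in WT. The other lower genes named by size were Ppp1r15a, Tshz2, Golgb1 and Zfp644, with ratios between 0.220 and 0.329, and thinned Zfp644 had a log2 ratio of 0.16.

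Over all gated cells, with markers of other cell types left out of the ranking, the lowest KO over WT ratios were H2-Ab1 and Cd74, genes of antigen presentation by class II molecules, at 0.111 and 0.154, followed by Lyz1 at 0.170 and Gsn at 0.249. Without Cpe in the gate the log2 ratio of Gsn was 0.45. Chil1, Lrg1, Fgfr2, Rnase4 and Acot7 were among the 12 lowest as well, with Egr1, Fos and Hspb1. The non-dominant cells had high levels of some of these: Cd74 stood at 598 CPM in KO and 3087 CPM in WT non-dominant cells, and at 9.43 and 123 CPM in KO and WT endothelial-dominant venous cells. The fibroblast list moved with the libraries too. All 4 measured members, Col1a1, Col1a2, Col3a1 and Dcn, were lower in KO over all gated cells, with a median log2 ratio of -3.90. Over all genes 1.75% were lower there. The fibroblast list summed to 145 CPM in KO and 2821 CPM in WT non-dominant cells, with up to 89326 CPM in 1 WT cell. H2-Ab1, Gsn, Chil1, Fgfr2, Rnase4 and Acot7 were not called in the endothelial-dominant cells, while Cd74, Lyz1 and Lrg1 were. The 7 KO and 30 WT non-dominant cells are different fractions of their libraries' gated cells, and their part in these values was measured by leaving them out.

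By list, the other differences between KO and WT venous cells were few. Of 14 interferon genes, Isg15 and Ifi204 were lower, with Ifi204 at 0 UMIs in KO and 130.1 CPM in WT venous cells and at 0.792 and 168 CPM in other KO and WT endothelial cells. Of 7 adhesion genes, Vcam1 and Cd34 were lower: Vcam1, a leukocyte adhesion receptor, was at 18.9 CPM in KO and 127 CPM in WT. Of 12 venous list genes, Vcam1 and Lrg1 were lower and 0 higher, and the median log2 ratio was -0.32, while Vwf had a ratio of 0.842 (0.748 to 0.947) and Nr2f2 of 1.53 (1.11 to 2.08), both short of 2-fold. Of 12 arterial list genes, Sox17 was higher, of 21 transcription factors Sox17 was higher and Zfp36 lower, and of 11 antigen presentation genes Cd74 was lower. Of 14 matrix genes, Sparc was higher, with Eln at 1.97 times and Mgp at 1.99 times WT, both just short of the limit, and 1 KO cell held 48.9% of the KO Mgp UMIs, without which KO venous cells had 1210.4 CPM. Of 12 measured sprouting genes 0 were called in venous cells, with a median log2 ratio of -0.16. That count is near the shares over all genes, 1.15% higher and 1.37% lower. In the far more numerous other endothelial cells, 6 of 17 measured sprouting genes were higher in KO and 0 lower, with a median log2 ratio of 0.43. The shares over all genes in those cells were 1.55% higher and 1.05% lower.

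Acvrl1 had a KO over WT ratio of 0.763 (0.585 to 0.985) in venous and 0.709 in other endothelial cells, and UMIs in 15 of 15 KO and 48 of 49 WT venous cells, so its 3' counts did not separate the libraries at 2-fold. A 3' count can remain after a deletion elsewhere in a gene, and the labels do not name the deleted gene. Of 11 BMP receptor and SMAD genes, Bmp4 alone was called, and of 10 BMP target genes Id2, a helix-loop-helix inhibitor, alone, at 123 CPM in KO and 294 CPM in WT venous cells. Id1 was at 1613 CPM in KO and 1051 CPM in WT venous cells, and at 597 and 660.1 CPM in other KO and WT endothelial cells. Notch, junction, haemostasis, lipid and amine genes gave 0 calls between the libraries in endothelial-dominant venous cells. Over all genes 1.15% were called higher and 1.37% lower in KO, so 0 calls in lists this short is near that share. With KO restricted to the 11 endothelial-dominant cells that had Y-linked UMIs alone, 51 genes were higher and 45 lower.

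**Figure D5:**
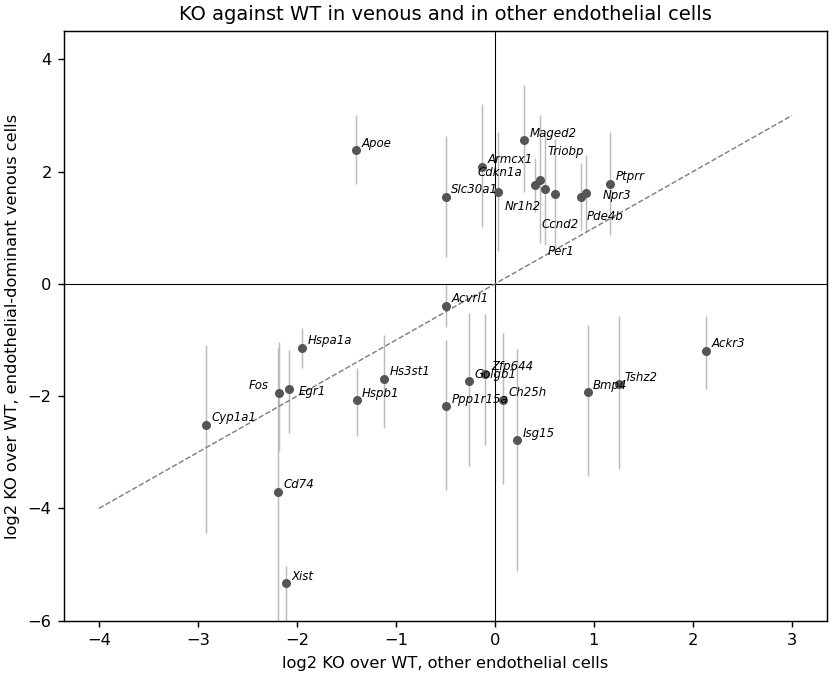
Each point is a gene named by size over the endothelial-dominant cells, or Acvrl1, Ackr3, Cd74, Hspa1a or Xist, by the log2 ratio of KO over WT in other endothelial cells (horizontal) and in venous cells (vertical, with exact 95% intervals cut at the frame), with equality dashed. Fos, Egr1 and Hspb1 lie below 0 on both axes, and Apoe and Ackr3, called in both classes, lie on opposite sides of 0. Xist had 0 UMIs in KO venous cells and is drawn at its floor of 3 counts.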

How the data were processed

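Single-cell UMI count matrices, deposited by the authors as whole-number counts of 27998 genes, were used for 1 KO and 1 WT library. Per the submitters' processing notes they were made with Cell Ranger 3.0.1 on mm10. Barcodes with 500 or more genes detected and no more than 10% of UMIs mitochondrial were gated as the report states, UMIs were summed over each class of cells, and levels are CPM with exact 95% Poisson intervals. Ratio intervals are conditional binomial and share intervals Clopper-Pearson. A class at 0 was given a floor of 3 counts. Doublets were called per library with Scrublet in scanpy 1.11.5, which marked 11 KO cells (0.830%) and 16 WT cells (0.583%), and were kept. Python 3.11.15, numpy 2.4.6, scipy 1.17.1, pandas 2.3.3 and matplotlib 3.10.9 were used, and gene positions are from GENCODE M21 by Ensembl identifier. The calling script was tested on simulated data. UMI depth and the few venous cells limit precision, and intervals and floors cover counting error only.

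No test across samples was possible with 1 library a group. Named genes were the 15 highest and 10 lowest called ratios of venous over other endothelial cells and the 12 highest and 12 lowest of KO over WT at a mean of at least 100 CPM, each also at least 2-fold over the endothelial-dominant cells. Mitochondrial, ribosomal, haemoglobin, predicted, sex-linked, gate and other cell type genes were not ranked. Acvrl1, the marker genes and up to 4 genes of each list were added, and other genes, including the ranks over the 64 cells, were chosen after their values were seen. A gene ranked among the 15 highest over the 64 cells is not reported here. The members and lists were chosen with earlier results of these data known. Alternatives covered the gate, cell filter, doublets, depth, scaling, fold, minimum level, comparison cells and sex-typed cells.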

Additional observations from a re-analysis of the deposited data

Results flagged for a closer look

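Ackr3 and Apoe were called in opposite directions between KO and WT in venous cells and in the other endothelial cells. Ackr3, an atypical receptor that scavenges the chemokine CXCL12, had a KO over WT log2 ratio of -1.19 in endothelial-dominant venous cells, at 226 CPM in KO and 517 CPM in WT, and of 2.13 in other endothelial cells, at 290.3 CPM in KO and 66.3 CPM in WT. Apoe had a log2 ratio of 2.38 in venous cells and of -1.41 in other endothelial cells, where it was at 28.1 CPM in KO and 74.5 CPM in WT. In KO venous cells 69.1% of the Apoe UMIs were in 1 cell. With 1 library a group, the difference between the classes was not tested for either gene.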

How the results depend on the processing

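Changes below are of all 101 cells unless the 64 endothelial-dominant cells are named. The share (4.48% in KO, 5.48% in WT) became 2.09% and 2.71% in KO and WT with at least 3 venous genes, 2.43% and 3.26% when thinned to 1500 UMIs, and in WT 4.21% under a stricter cell filter (1000 or more genes, no more than 5% mitochondrial), 3.47% for endothelial-dominant cells and 7.69% without aerocyte-gated cells in the denominator. Genes higher and lower in venous than in other endothelial cells (148 and 341) were 85 and 134 with at least 3 venous genes, 82 and 106 for endothelial-dominant cells, 91 and 32 when thinned, and 230 and 580 at a fold of 1.5. Centring gave 206 higher and 189 lower, no minimum level gave 418 higher, the mean over cells gave 181 lower, and arterial-gated cells as comparison gave 117 lower. Genes higher and lower in KO than in WT (80 and 56) were 15 and 13 when thinned and 326 and 147 by the mean over cells with the fold rule alone. Higher genes were 35 under the stricter cell filter, 42 for endothelial-dominant cells and 156 at a fold of 1.5, and lower genes 93 with no minimum level. For the 64 cells, thinning gave 30 lower genes against other cells and 14 higher and 9 lower in KO, and arterial-gated cells as comparison gave 49 higher and 54 lower.

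Of the ratios of single genes, 13 changed sign. Against arterial-gated cells the log2 ratios were -0.14 for Hspa1a in WT, -0.42 and -0.19 for Emp3 in KO and WT, 0.98 for Sema7a in KO and 2.45 for Prx in WT, and over the 64 cells 3.44 for Prx in WT, 1.64 and 0.42 for Sema7a in KO and WT and 0.057 for Ptp4a3 in KO. KO over WT, Gsn had 0.45 without Cpe in the gate, Apoe -0.20 over the 64 cells without the arterial limit, and thinned Ptprr and Zfp644 had -0.29 and 0.16. The cause was not tested. Thinning left fewer UMIs and also changed which cells passed the gate, and these 2 changes were not separated. KO cells with Xist alone, 1 cell, were not run. No paired analysis was possible because there was 1 library a group. The 15 KO cells limit the precision of every KO level.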
